A study of Rattus norvegicus with 18 samples.

Results

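Small noncoding RNAs and replication histones are transcripts that carry no poly(A) tail or a short one, and 26 of them were among the 6588 genes that the authors listed as changed in at least 1 of 3 comparisons of rat left ventricle. The members were the rows whose symbol began with Snor, Scarna, Rn7s or Hist and a digit, was U and a number, or was Rpph1 or Rmrp, ignoring case. They comprised 10 C/D box small nucleolar RNAs (snoRNAs), 7 H/ACA box snoRNAs, 2 small Cajal body RNAs, 4 spliceosomal RNAs, the RNA of ribonuclease P and 2 histone genes. No row with a symbol beginning Rn7s or equal to Rmrp was listed.

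The hearts came from 18 male rats, 6 in each of 3 groups. WKY rats were the wildtype control strain, ZSF1 lean rats were hypertensive, and ZSF1 obese rats had hypertension with metabolic syndrome and modelled heart failure in which the ejection fraction is preserved. Ages and treatments are not given in the labels, and the WKY rats are a different strain from both ZSF1 groups. The libraries were made with a stranded mRNA kit that draws RNA out with poly-T beads, while the batch entry of all 18 samples reads total RNA. Since the members carry no tail or a short one, a fold may come from a member's level or from its capture. These cannot be told apart here and neither was tested, so rose and fell describe the deposited fold alone. Each row of the authors' deposited tables gives a fold between 2 groups and an adjusted p-value, so levels per rat, their spread and the sequencing depth are unknown. A gene had to reach a fold of 2 or 0.5 to be listed, and for an absent member no detection can be read either way. Unadjusted p-values are not part of the tables. The labelled tissue could be checked only through changed genes: of 12 cardiomyocyte markers, 6 were listed in each obese comparison, which shows that their transcripts were measured.

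C/D box snoRNAs guide ribose methylation and H/ACA box snoRNAs guide pseudouridylation, both mostly of ribosomal RNA in the nucleolus. Small Cajal body RNAs do the same for spliceosomal RNAs. In mammals most snoRNAs are cut out of the introns of host genes, many of which encode ribosomal proteins or translation factors. U4 and U6 are spliceosomal RNAs that pair with each other before the spliceosome is activated. Rpph1 is the catalytic RNA of ribonuclease P, which removes the leader from precursor transfer RNAs. Replication histone mRNAs are made mainly during DNA synthesis and end in a stem-loop in place of a poly(A) tail.

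In obese against lean hearts 18 of the 19 listed members rose and 1 fell, where 53.4% of all 5700 listed genes rose and 46.6% fell. The median fold of the 19 members was 3.36 in the authors' deposited table, beside 2.099 over all listed genes. Among genes that rose the medians were 3.38 for members and 3.01 for all listed genes in the authors' deposited table. In obese against WKY hearts all 22 listed members rose, where 54.0% of all 5709 listed genes rose and 46.0% fell. Their median fold was 4.09 in the authors' deposited table, and among all listed genes that rose it was 3.05. Both comparisons share the 6 obese rats, so their counts are not separate evidence. In lean against WKY hearts 2 members were listed, of which 1 rose and 1 fell, where 63.9% of 233 listed genes rose and 36.1% fell.

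**Figure D1:**
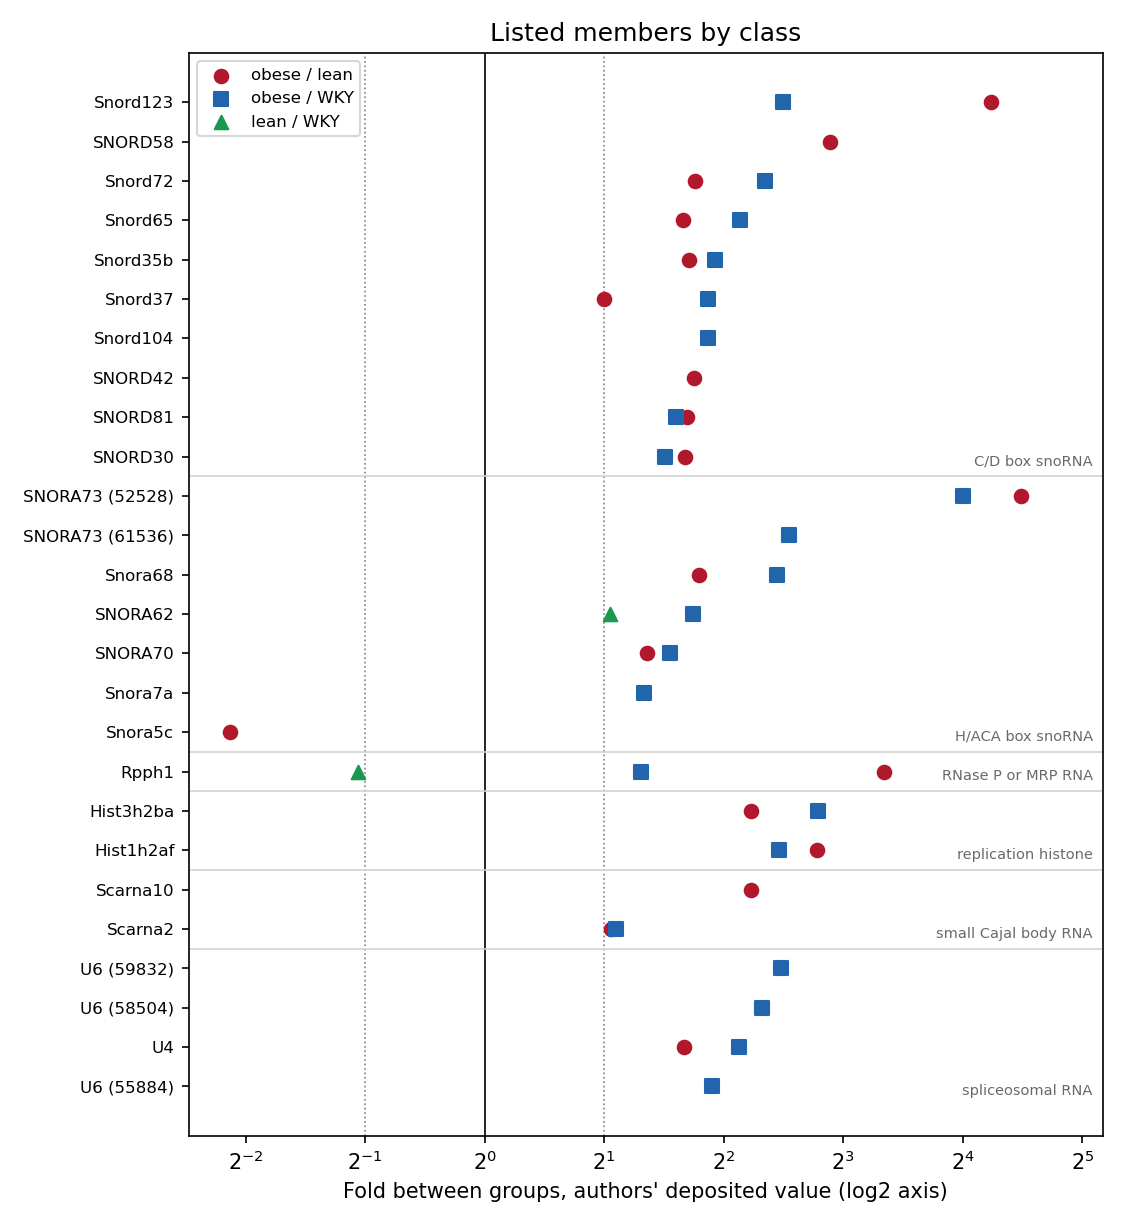
Fold between groups for each of the 26 members (log2 axis), by class, as given in the authors' deposited tables. Circles are obese over lean, squares obese over WKY and triangles lean over WKY, a missing symbol means not listed, triangles come from a list whose folds ran narrower, dotted lines mark folds of 0.5 and 2, and digits in brackets are the end of the Ensembl identifier. All squares lie above 2, and Snora5c at 0.228 is the sole circle below 1.

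The 2 histone genes rose in both obese comparisons. Hist1h2af, a gene for a core histone H2A (ENSRNOG00000022146), rose 6.87-fold over lean hearts (adjusted p = 0.00032) and 5.50-fold over WKY hearts (adjusted p = 0.0027) in the authors' deposited tables. For Hist3h2ba, a core histone H2B gene (ENSRNOG00000043419), the authors' deposited tables give folds of 4.69 over lean (adjusted p = 2.38e-07) and 6.92 over WKY (adjusted p = 5.13e-10). Neither gene was listed in lean against WKY hearts.

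The RefSeq promoters of both histone genes are shown because the genes rose together, with the CCAAT box in capitals on either strand (CCAAT or ATTGG). Each window holds 250 bases before and 50 after the start of the gene in build GRCr8, at chr17:41807604-41807903 on the minus strand for Hist1h2af and chr10:44225171-44225470 on the plus strand for Hist3h2ba. For Hist1h2af the 50 bases open with atg, so its annotated start may be that of the coding sequence. Both windows may therefore be anchored differently.
Hist1h2af: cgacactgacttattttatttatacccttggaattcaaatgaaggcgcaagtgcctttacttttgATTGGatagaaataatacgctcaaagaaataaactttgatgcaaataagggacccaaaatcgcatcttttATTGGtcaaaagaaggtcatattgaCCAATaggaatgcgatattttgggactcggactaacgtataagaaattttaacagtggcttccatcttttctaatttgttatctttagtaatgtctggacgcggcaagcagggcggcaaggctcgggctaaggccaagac
Hist3h2ba: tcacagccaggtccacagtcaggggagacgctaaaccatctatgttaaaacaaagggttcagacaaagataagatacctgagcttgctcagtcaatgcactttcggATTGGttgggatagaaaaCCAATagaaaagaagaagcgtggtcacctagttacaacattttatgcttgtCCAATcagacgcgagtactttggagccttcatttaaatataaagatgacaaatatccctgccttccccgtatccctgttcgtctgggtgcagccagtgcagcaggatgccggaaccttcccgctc
Each promoter holds 3 matches that do not overlap. Of the 33469 promoters of the same length in the table, 37.5% hold at least 1 match and 3.02% hold 3 or more. A match describes the letters and is not evidence of a bound factor.

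All 9 listed C/D box snoRNAs rose in obese against lean hearts, and the authors' deposited table puts their median at 3.27-fold. Snord123 (ENSRNOG00000061186) rose 18.9-fold (adjusted p = 1.5e-11), which ranks 12th of the 5700 genes in the authors' deposited table. SNORD58 followed at 7.41-fold (adjusted p = 2.11e-05) by the authors' deposited table. The other members of the class lay closer together, between a fold of 2.00 for Snord37 (adjusted p = 0.033), which is the threshold of the list itself, and 3.39 for Snord72 (adjusted p = 0.0018) in the authors' deposited table. Between them stood SNORD42 at 3.36, Snord35b at 3.27, SNORD81 at 3.23, SNORD30 at 3.20 and Snord65 at 3.16 in the authors' deposited table. Their adjusted p-values ran from 1.06e-07 for SNORD81 to 0.028 for Snord65 in the authors' deposited table.

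Against WKY all 8 listed C/D box snoRNAs rose, at a median of 3.73-fold by the authors' deposited table. Snord123 again had the largest fold of the class, 5.66 (adjusted p = 8.37e-05) by the authors' deposited table, beside 18.9 against lean hearts. Snord72 stood at 5.10, Snord65 at 4.41, Snord35b at 3.81, Snord37 and Snord104 at 3.655, SNORD81 at 3.03 and SNORD30 at 2.85 in the authors' deposited table. Snord104 was listed against WKY and not against lean hearts, and SNORD58 and SNORD42 the other way round. Whether a member differed between the 2 comparisons was not tested.

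H/ACA box snoRNAs held both the largest rise of the family and its one fall. The SNORA73 entry ENSRNOG00000052528, of a family that acts in cleavage of precursor ribosomal RNA, rose 22.5-fold over lean (adjusted p = 3.21e-12) and 16.0-fold over WKY (adjusted p = 4.41e-10) in the authors' deposited tables. Against lean hearts it ranked 4th by fold of all listed genes. A second SNORA73 entry, ENSRNOG00000061536, was listed against WKY at 5.86-fold (adjusted p = 0.0027) by the authors' deposited table. SNORA73 copies are near identical, so the division of reads between them is uncertain. Snora68 rose 3.46-fold against lean and 5.46-fold against WKY, and SNORA70 2.57-fold and 2.93-fold, in the authors' deposited table. Snora7a, at 2.51-fold (adjusted p = 0.029) by the authors' deposited table, was listed against WKY and not against lean hearts.

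Snora5c (ENSRNOG00000057537) fell in obese hearts to 0.228 of lean (adjusted p = 0.00087) by the authors' deposited table, and was listed in no other comparison. SNORA62 (ENSRNOG00000058283) was the single snoRNA listed in lean against WKY hearts, at 2.07-fold (adjusted p = 1.43e-05) by the authors' deposited table. It rose 3.34-fold in obese against WKY hearts (adjusted p = 3.03e-05) by the authors' deposited table, and it was not listed in obese against lean hearts.

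The RNAs of the splicing machinery and those that guide its modification rose as well. U4 had a fold of 3.18 against lean (adjusted p = 0.0024) and of 4.38 against WKY (adjusted p = 0.00043) in the authors' deposited table. Against WKY 3 U6 entries were listed, with folds of 5.58, 4.99 and 3.73 and adjusted p-values of 0.0075, 0.0045 and 0.044 in the authors' deposited table. U6 has many near-identical copies, and these entries may share reads. Scarna2 rose 2.09-fold against lean (adjusted p = 2.49e-06) and 2.14-fold against WKY (adjusted p = 0.00015) in the authors' deposited table. Scarna10 was listed against lean and not against WKY hearts, at 4.69-fold (adjusted p = 0.011) by the authors' deposited table.

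Rpph1 (ENSRNOG00000054493) was the one member listed in all 3 comparisons. It rose 10.1-fold in obese against lean hearts, and its adjusted p of 2.22e-37 was the smallest of the family in the authors' deposited table. Against WKY it rose 2.48-fold in obese hearts (adjusted p = 0.0027) and fell to 0.48 in lean hearts (adjusted p = 0.00012), by the authors' deposited tables. The folds do not multiply through: those against WKY give an obese to lean ratio of 5.16, where the direct comparison gives 10.1. All 3 comparisons place the level lowest in lean and highest in obese hearts, with WKY between. In all 79 genes listed in the 3 tables, the lean against WKY log2 fold was nearer to 0 than the value that the 2 obese comparisons give, with a median size of 1.27 beside 1.73. Folds of the lean list therefore ran narrower, and their sizes, those of Rpph1 and SNORA62 included, are not directly comparable with the folds of the obese lists. The largest adjusted p in the lean list is 0.00035, where those of the obese lists are 0.050, and the tables do not say how this arose. An adjusted p no higher than 0.00035 was held by 8 of the 19 members against lean hearts, where 88.8% of all listed genes held one, and by 7 of the 22 against WKY, where 87.9% did.

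Some neutrophil and erythroid markers were listed in the same directions as Rpph1. Of 8 neutrophil markers, 6 rose in obese against lean hearts (folds 6.15 to 22.8) and 2 rose against WKY (2.099 and 6.45) in the authors' deposited tables. In lean against WKY hearts 3 neutrophil markers fell (0.33 to 0.35) in the authors' deposited table. Of the neutrophil markers only Csf3r was listed in all 3 comparisons, at 10.3, 2.099 and 0.33 in that order. The erythroid marker Epb42 had the same directions, at 6.68, 2.07 and 0.43. Another erythroid marker, Slc4a1, did not, at 0.374, 2.36 and 5.5, all in the authors' deposited tables. The part of either cell type in the Rpph1 values was not tested. In whole tissue a change in the number of cells of a type and a change in RNA per cell cannot be told apart.

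Members had folds in the range of other listed genes but mostly larger adjusted p-values. The median adjusted p of listed members was 0.0018 against lean and 0.0027 against WKY in the authors' deposited tables, beside 1.035e-17 and 6.67e-15 over all listed genes. An adjusted p above 0.01 was given to 5 of 19 members against lean, where 4.16% of listed genes had one, and to 5 of 22 against WKY, where 4.78% had one. A fold of 10 or more was reached against lean by 3 members, SNORA73, Snord123 and Rpph1, where 1.16% of listed genes reached it, and against WKY by 1, SNORA73, where 1.42% did. In lean against WKY hearts neither of the 2 members reached it, where 1.29% of listed genes did. Against lean hearts the 3 members past a fold of 10 also had the smallest adjusted p-values of the family.

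**Figure D2:**
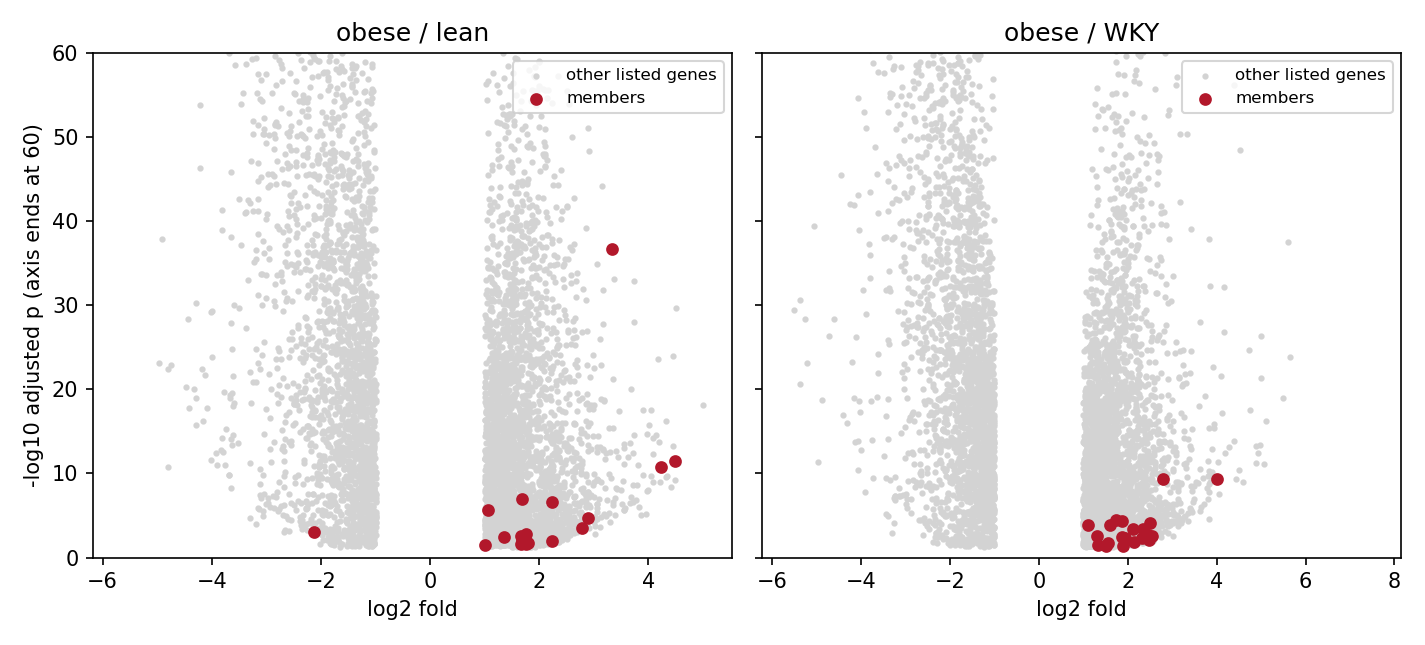
log2 fold (x axis) and -log10 of the adjusted p (y axis, ending at 60) of every gene in the authors' deposited tables, for obese over lean (left) and obese over WKY (right), with members in red. The 640 and 418 genes beyond the axis are not drawn and include no member, and the highest member is Rpph1, at a log2 fold of 3.34 in the left panel.

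Of the 26 members 13 were matched by symbol to the RefSeq gene table of build GRCr8, and 11 of these lie within the span of another gene there. In 3 cases that gene was itself listed. Snord72 lies within Rpl37, a ribosomal protein gene, and against lean hearts their folds were 3.39 and 3.23 in the authors' deposited table. Against WKY the same pair stood at 5.10 and 3.25 in the authors' deposited table. Snord65 lies within the span of Trpv2, a cation channel gene, with folds of 3.16 and 3.84 against lean and of 4.41 and 4.63 against WKY in the authors' deposited tables. Snora5c lies within Tbrg4, a gene for a mitochondrial RNA-binding protein, and both fell against lean hearts, to 0.228 and 0.325 in the authors' deposited table. Against WKY Tbrg4 stood at 0.325 as well (adjusted p = 4.54e-38) in the authors' deposited table, and Snora5c was not listed. The pairs moved in the same direction wherever both were listed, and reads from a small RNA and from its surrounding gene may not be separable in such counts.

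For the other 8 matched members within a gene, no listed gene carried the symbol of the surrounding gene. They include Hist1h2af within the span of H4cl1, SNORD81 within Gas5, Scarna10 within Ncapd2 and Rpph1 within the span of Parp2. The search was by symbol alone, so a surrounding gene listed under another name would have been missed. A wider list held 59 symbols of genes known in mammals to host snoRNAs. Of these 16 rose and 3 fell against lean, where 53.4% of all listed genes rose. Against WKY 13 rose and 4 fell, where 54.0% of all listed genes rose. The list was counted by symbol, and Rpl30, for example, was listed under a different Ensembl identifier in each comparison. The smallest adjusted p-values of this list against lean hearts belonged to 3 genes that fell, Hspa9, a mitochondrial chaperone gene, at 0.054, Eif4g2 at 0.451 and Eif4a2 at 0.435, and to Taf1d, which rose 4.44-fold, in the authors' deposited table. Most of the hosts that rose encode ribosomal proteins, such as Rpl3, which stood at 3.76 in the authors' deposited table (named after its value was seen).

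**Figure D3:**
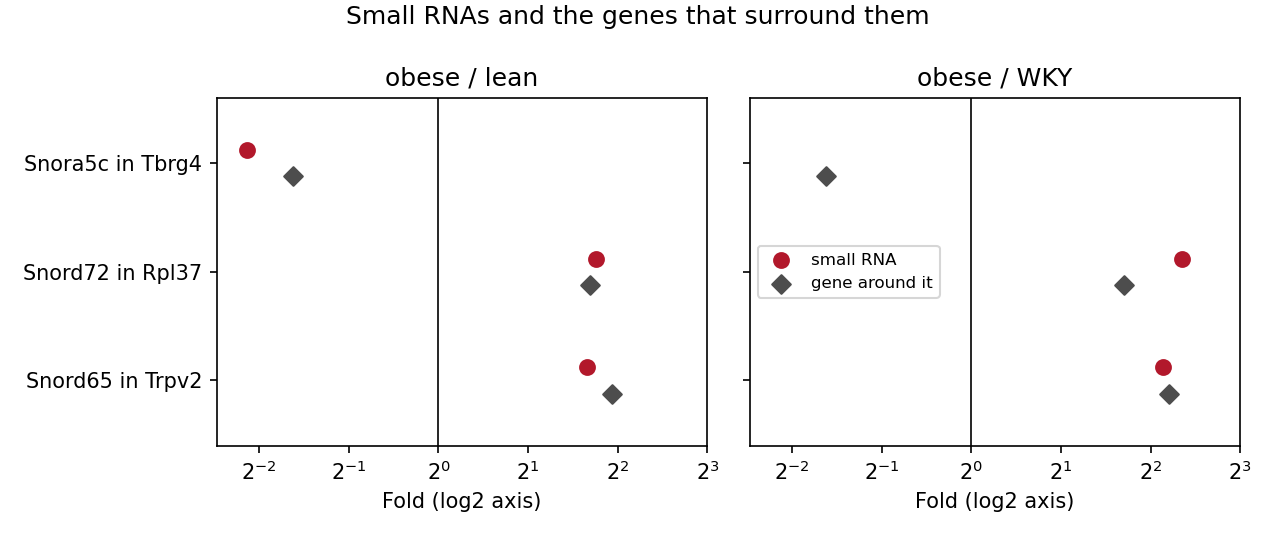
Folds (log2 axis) in the authors' deposited tables of 3 snoRNAs (circles) and of the genes whose span holds them in GRCr8 (diamonds), obese over lean on the left and obese over WKY on the right. Each circle lies on the same side of 1 as its diamond, and Snora5c was not listed against WKY.

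The tables hold further RNAs of these classes under clone names or other symbols, found by their descriptions. Against lean hearts there were 13, of which 12 rose and 1 fell, and against WKY 16, of which 15 rose and 1 fell. The snoRNA described as U109 (AABR07058484.1) had the second largest fold of all genes against lean, 23.4 (adjusted p = 5.92e-12), and 16.45 against WKY in the authors' deposited tables. SNORA40 (AC129234.1) stood at 12.6 and 7.78 in the authors' deposited tables. RNase MRP RNA (RNase_MRP), a relative of ribonuclease P RNA that acts in ribosomal RNA processing, rose 7.31-fold against lean (adjusted p = 1.02e-27) and 2.87-fold against WKY (adjusted p = 0.00034) in the authors' deposited tables. As with Rpph1, its fold was larger against lean than against WKY. Of the 15 members listed in both obese comparisons, 6 had the larger fold against lean and 9 against WKY, and the difference was not tested. Among the further RNAs the one that fell was SNORA28 (AABR07065593.1), at 0.21 of the lean and 0.189 of the WKY level in the authors' deposited tables. Clustered histones under newer symbols were mixed against lean: H1f6 (fold 3.555), H4c14 (3.39) and H1f4 (2.50) rose and H4f3, described as linker histone H1.3, fell to 0.457 in the authors' deposited table. Against WKY H1f6 rose 8.17-fold and H1f4 2.85-fold in the authors' deposited table, and the other two were not listed.

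Most gene symbols of the proteins that work with these RNAs were not listed. The number of genes tested is unknown, so no share of all tested genes can be set beside these counts. Of 24 gene symbols for proteins of snoRNA particles, among them the methyltransferase Fbl and the pseudouridine synthase Dkc1, 0 were listed against lean hearts. Against WKY 1 was listed, Gar1 at 2.099-fold by the authors' deposited table. None of 10 signal recognition particle gene symbols was listed in any table. Of 11 protein subunits of ribonucleases P and MRP 2 rose in both obese comparisons and 0 fell. Rpp21 had a fold of 3.34 against lean (adjusted p = 4.6e-30) and of 2.60 against WKY, and Rpp40 of 2.17 and 2.085, in the authors' deposited tables. Of 8 genes of the 7SK particle and of P-TEFb, the kinase it holds inactive, 3 rose against lean, and 1 rose and 1 fell against WKY. Of 32 spliceosomal particle genes 4 rose and 1 fell against lean, and 3 rose and 1 fell against WKY. Snrpn, an Sm protein gene, fell to 0.054 of the lean and 0.072 of the WKY level in the authors' deposited tables. Snrnp48, a protein of the minor spliceosome, rose 2.60-fold and 2.46-fold in the authors' deposited tables.

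Factors that trim histone mRNAs, load histones or act on poly(A) tails did not move in 1 direction. Lsm11 and Zfp473, both part of the U7 particle machinery that trims histone mRNAs, fell to 0.33 and 0.344 of the lean level and to 0.457 and 0.451 of the WKY level in the authors' deposited tables. Chaf1b, a subunit of the chromatin assembly factor that loads new histones, rose 3.27-fold and 2.91-fold in the authors' deposited tables. The other 17 of 20 symbols in that list, including the stem-loop binding protein gene Slbp, were not listed. Of 29 gene symbols for poly(A) tails and trimming 3 rose and 1 fell in both obese comparisons. Pabpc1, a cytoplasmic poly(A)-binding protein gene, rose 4.06-fold against lean (adjusted p = 9.9e-102) and 2.445-fold against WKY, while its relative Pabpc4 fell to 0.312 and 0.268, in the authors' deposited tables.

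Genes of DNA synthesis and division were listed in the same comparisons as the histones. Of 36 such genes 13 rose and 0 fell against lean, at a median of 3.34-fold, and 9 rose and 0 fell against WKY, at a median of 2.57-fold, in the authors' deposited tables. Cdk2 had the smallest adjusted p, with folds of 2.69 and 2.585, and Mcm6, a subunit of the replicative helicase, stood at 2.46 and 2.25, in the authors' deposited tables. Of 15 symbols of replication-independent histone genes, mostly older names, 3 rose and 0 fell against lean, and 2 rose and 0 fell against WKY. Genes listed under newer symbols are missing from these counts. Among them is the linker histone gene H1f10, searched as H1fx. Its log2 fold against lean was 2 in the authors' deposited table (named after its value was seen). H3f3a, a gene for histone H3.3 whose mRNA is polyadenylated, rose 2.66-fold and 2.48-fold in the authors' deposited tables.

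Several other groups were listed in the same comparisons, not all in the direction of the members. All 12 listed mRNAs of the mitochondrial genome, which carry short tails, rose against lean (folds 2.64 to 4.35) and all 11 listed rose against WKY (2.16 to 3.48) in the authors' deposited tables. Rows described as microRNAs rose in 11 cases and fell in 3 against lean, and rose in 8 and fell in 1 against WKY. Mir675 had the largest fold of these, 16.45 against lean, and Mir22 the lowest, 0.152, in the authors' deposited table (both named after their values were seen). Of 12 macrophage markers 11 rose against lean and 12 against WKY, endothelial markers rose in 10 of 12 cases in both, and cardiomyocyte markers fell in 6 of 12 cases in both. Fibroblast markers rose in 6 and 8 of 12 cases, lymphocyte markers in 7 of 12 in both and markers of dividing cells in 6 and 4 of 8. Of 8 erythroid markers 3 rose and 1 fell against lean and 4 rose and 0 fell against WKY. The part of any of these groups in the rise of the small RNAs was not tested.

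**Figure D4:**
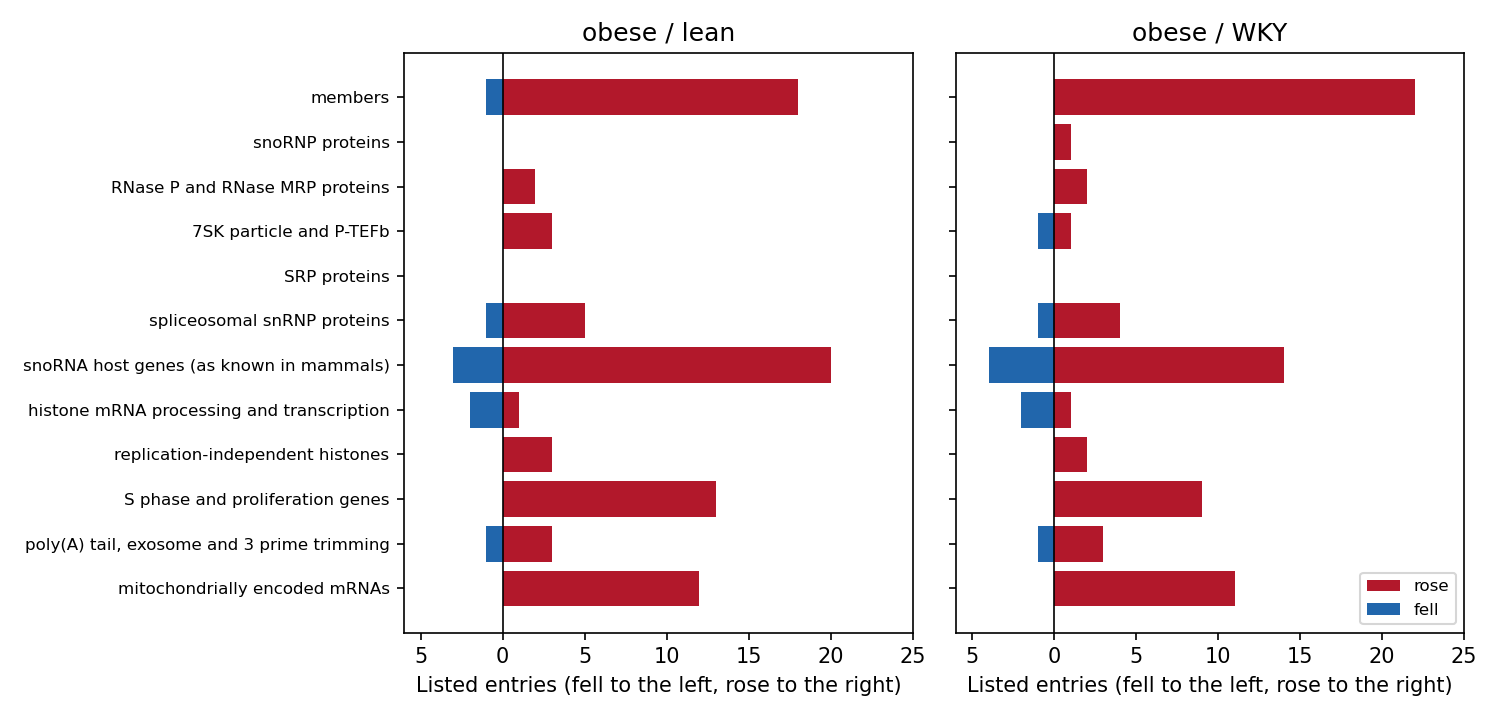
Number of listed entries that rose (to the right) and fell (to the left) among the members and among 11 lists of related genes, from the authors' deposited tables, obese over lean on the left and obese over WKY on the right. Entries are counted by Ensembl identifier, so a symbol with several identifiers counts more than once. Members, S phase genes and mitochondrial mRNAs lie almost wholly on the right, as do, with fewer entries, ribonuclease P and MRP proteins and replication-independent histones.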

How the data were processed

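Polyadenylated RNA of 18 rat left ventricles was sequenced, per the labels' protocols. Build Rnor_6.0 and the tools HISAT2 2.1.0, HTSeq 0.11.2 and DESeq2 1.22.2 come from the submitters' processing notes, whose settings were not stated there. The authors deposited 3 tables of changed genes, whose columns are headed as a fold change and a false discovery rate, an adjusted p-value. The headers give neither the scale nor the direction of the fold. It was read as a linear ratio with the first group named in each comparison on top. Fold and adjusted p were used as they stand, and no test was added. Log2 folds, counts and medians were computed with Python 3.11.15 and pandas 2.3.3. Depth is unknown, and values per rat were not used here.

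Members were chosen by symbol, counted by Ensembl identifier, and all of them were named. Genes outside the family were named by smallest adjusted p (up to 4 per list) or because their span holds a member, unless stated. Members and lists were chosen with earlier results of these data known. Lists were matched by symbol. Some hold an older and a newer symbol of the same gene, and others miss newer symbols, so list sizes count symbols and not genes. Promoters and gene spans come from RefSeq, build GRCr8. Alternatives were stricter thresholds, 1 entry per symbol, members by description, leaving out symbols that match by letters alone and leaving out the most changed member.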

Additional observations from a re-analysis of the deposited data

How the results depend on the processing

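Counts by direction and medians were recomputed under 6 other settings and 1 more chosen after seeing the data. Choosing members by symbol or description gave 33 rises and 3 falls against lean, and 39 rises and 1 fall against WKY. Limiting the obese lists to the largest adjusted p of the lean list, the setting chosen later, left 8 rises and 0 falls against lean and 7 rises against WKY, while 5060 of 5700 and 5021 of 5709 listed genes met it. It moved the median log2 fold of members against lean from 1.75 to 2.84. In lean against WKY hearts, a fold of at least 3 left 0 rises and 0 falls and no median, and leaving out the most changed member, Rpph1, left 0 falls and moved the median log2 fold from about 0 to 1.05. An adjusted p of 0.01 gave 13 rises against lean and 17 against WKY, with 1 and 0 falls. The other medians that could be computed moved by at most 1.5 times as a fold. No listed symbol matched by its letters alone. No paired analysis was possible because no rat of one group has its number repeated in another and the tables hold no values per rat. For the same reason leaving out each rat in turn was not run. Near-identical copies limit SNORA73, U6 and other multicopy RNAs.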
